A study of Mus musculus with 458 samples.

Results

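Haematopoietic stem cells (HSCs) of platelet-restricted mice were divided by the expression of Mmrn1. Of 177 such cells, 64 had Mmrn1 at 1 RPKM or more (a read count corrected for gene length and for the depth of the cell) and are called Mmrn1-expressing, and the other 113 had less and are called Mmrn1-low. The whole series holds 458 cells, each cell being its own sample. Because Mmrn1 values chose the 2 classes, the Mmrn1 values below are a description and were not tested. The data ask which other transcripts differ between the classes, and whether they do so in each of the 2 platelet-restricted mice.

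A single Vwf+ HSC had been transplanted into each C57BL/6 recipient, and the blood lineages it made were followed over 16 weeks. The clone made only platelets in platelet-restricted (PLT) mice and every lineage in multilineage (MUL) mice, while in PEM mice it made red cells and myeloid cells besides platelets. All cells used here were donor-derived bone marrow cells sorted as LSK CD150+CD48-CD45.2+, a phenotype enriched for HSCs. Since every PLT mouse carries 1 transplanted clone, each mouse stands for 1 donor stem cell, and clone, recipient and sort cannot be told apart. PLT mouse 1 gave 93 cells and PLT mouse 2 gave 84. The deposited cell table lists them as male and female, without saying whether donor or recipient is meant, and the labels give no age. The cells of each mouse lay on 2 plates, plate 1 and plate 2 of that mouse.

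Mmrn1 encodes multimerin 1, a large soluble protein that is stored in the alpha-granules of platelets and megakaryocytes and binds coagulation factor V. Alpha-granules carry adhesive proteins and chemokines such as von Willebrand factor (Vwf) and platelet factor 4 (Pf4), and some HSCs transcribe such platelet genes long before a megakaryocyte forms. Vwf marks HSCs with a platelet bias, and CD150, the product of Slamf1, is one of the surface proteins by which mouse HSCs are sorted.

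Mmrn1 lies on chromosome 6 from 60924976 to 60989378 on the plus strand (GENCODE M21, mm10), and its 2 protein-coding transcripts start at 60944476 and 60944478. The RefSeq window around its start in GRCm38.p6, chr6:60944067-60944366 on the plus strand, is shown because this is the gene whose transcript was abundant in some cells and nearly missing in others. It covers 250 bases before the RefSeq start and 50 after it.
Mmrn1 promoter: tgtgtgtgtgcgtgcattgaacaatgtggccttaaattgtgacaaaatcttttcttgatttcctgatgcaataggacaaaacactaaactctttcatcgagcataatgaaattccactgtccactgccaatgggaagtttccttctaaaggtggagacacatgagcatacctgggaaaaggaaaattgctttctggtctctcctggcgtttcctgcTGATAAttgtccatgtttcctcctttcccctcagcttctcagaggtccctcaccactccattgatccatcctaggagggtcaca
The capitals mark the 1 match to TGATAA, a form of the GATA motif, searched on both strands. Of 27025 mouse promoters of the same length, 9.26% hold TGATAA. The window holds no AGATAA (in 11.4% of promoters), no AGGAAG (35.1%) or CGGAAG (17.2%), which are ETS motifs, and no TGTGGT (16.9%), a RUNX motif. A match describes the letters only.

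In PLT mouse 1, 28 of 93 cells were Mmrn1-expressing, which is 30.1% (exact Clopper-Pearson 95% interval 21.0 to 40.5%). In PLT mouse 2 they were 36 of 84 cells, or 42.9% (32.1 to 54.1%). The plates of a mouse gave similar shares, with 14 of 47 and 14 of 46 cells in mouse 1, and 19 of 43 and 17 of 41 cells in mouse 2. On each of the 4 plates the expressing cells were spread over 7 of the 8 rows of wells. These intervals cover counting error only.

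Expressing cells held a great deal of the transcript. In mouse 1 their Mmrn1 values ran from 1.71 to 844 RPKM with a median of 334 and a mean of 324 ± 250 (SD over 28 cells). In mouse 2 they ran from 1.22 to 703 with a median of 141 and a mean of 197 ± 181 (SD over 36 cells). In the low class the mean was 0.177 RPKM in mouse 1 and 0.207 in mouse 2, and the highest cells reached 0.932 and 0.997. Mmrn1 was listed at 0 in 15 of the 65 low cells of mouse 1 and in 8 of the 48 of mouse 2.

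**Figure D1:**
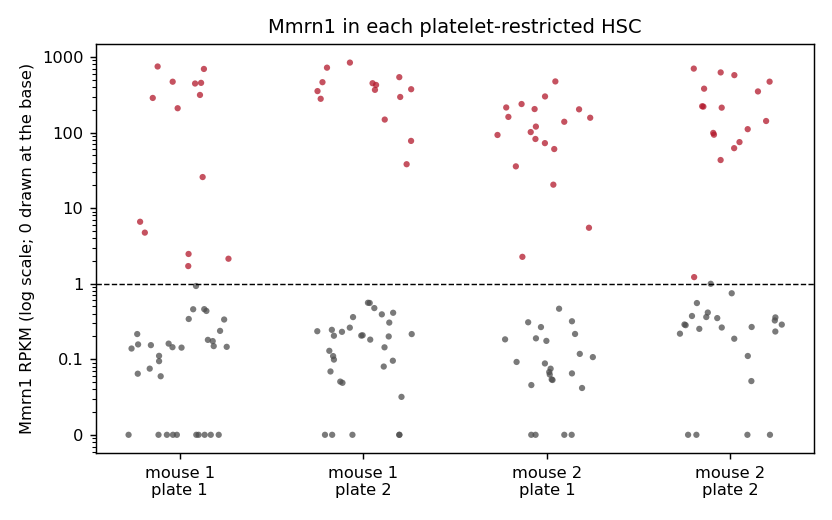
Mmrn1 in each of the 177 platelet-restricted HSCs, in RPKM on a log scale, by mouse and plate. Each point is 1 cell, cells listed at 0 are drawn at the base, red points are the 64 cells at or above the threshold of 1 RPKM (dashed line) and grey points the 113 below it. On each plate most expressing cells lie above 20 RPKM and few cells lie near the threshold.

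Few cells lay near the threshold. The 3 highest values below it were 0.747, 0.932 and 0.997 RPKM, and the 3 lowest above it were 1.22, 1.71 and 2.14. Only 8 cells fell between 1 and 10 RPKM, the highest of them at 6.60, and the next cell stood at 20.4. Of the rest, 56 cells were at 10 RPKM or more and 42 at 100 or more. Values in the low class fell near whole multiples of the lowest step, with 16, 17 and 16 cells within 0.25 of 1, 2 and 3 steps. Taking 1 step as 1 read, which is an estimate because the read totals behind RPKM are unknown, the low cells above 0 had a median of about 3.09 reads and at most about 13. The expressing cells then had a median of about 3180 and a minimum of about 13.1, so the classes touch at the threshold.

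Traces of Mmrn1 were seen in most low cells of the PLT mice. Mmrn1 was above 0 in 50 of the 65 low cells of PLT mouse 1 and in 40 of the 48 of PLT mouse 2. It was above 0 in 0 of 163 MUL cells, where 3 counts of the total allow up to 1.84% of cells with a detected read, and in 1 of 118 PEM cells, at 0.0261 RPKM. This limits detection, since a transcript that is present can be missed in a single cell. The low cells had shared their plates with the expressing cells, and how far that bears on the traces was not tested.

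Depth did not separate the classes, but the number of detected genes was somewhat higher in expressing cells. The median of detected genes was 1930 in expressing and 1847 in low cells of mouse 1, with ranges of 1479 to 3171 and 1188 to 3447. In mouse 2 the medians were 2754.5 and 2516, with ranges of 1905 to 4399 and 1608 to 4535. The expressing class had the higher median on each of the 4 plates, by 238.5 and 112.5 genes in mouse 1 and by 239 and 371.5 in mouse 2, though the ranges overlapped almost wholly. The 2 mice differed more from each other than the classes did.

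Median mapped reads were 4.72 M in expressing and 4.82 M in low cells of mouse 1, and 4.76 and 4.92 M in mouse 2. The median share of mitochondrial reads was 6.43% against 6.31% in mouse 1 and 6.55% against 7.05% in mouse 2, so the direction differed between mice. Over the cells of a mouse, the Spearman correlation of Mmrn1 with detected genes was -0.06 over 93 cells and 0.08 over 84 cells, and with mapped reads it was -0.09 and -0.03. These correlations are descriptions over cells of 1 animal. The gene differences below were also computed after adjustment for detected genes, mapped reads and plate. That adjustment was fitted on log2 values of single cells, not on the log2 of class means.

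**Figure D2:**
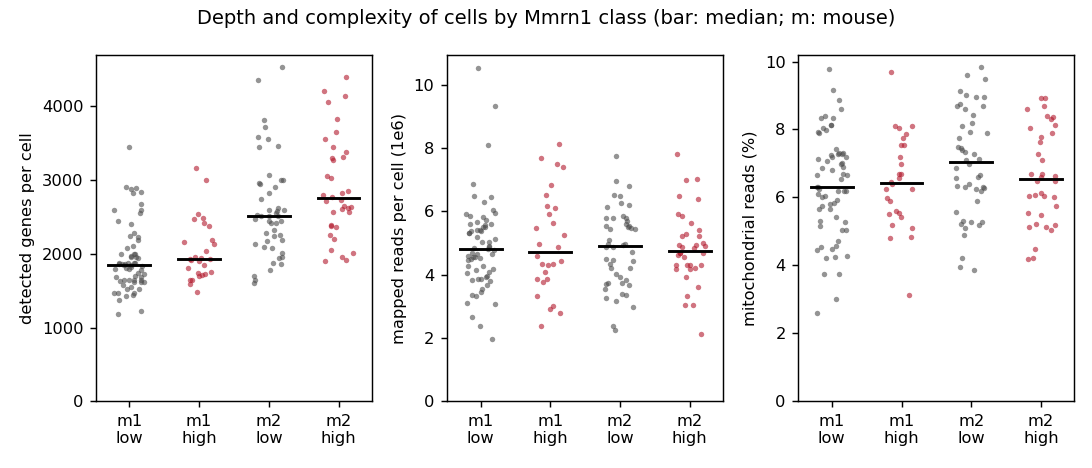
Detected genes, mapped reads in M and the percent of mitochondrial reads per cell, by Mmrn1 class in PLT mouse 1 (m1) and PLT mouse 2 (m2). Each point is 1 cell and each bar a median. Medians of detected genes are 1847 and 1930 in mouse 1 and 2516 and 2754.5 in mouse 2, low class first, while mapped reads lie close together.

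The sort label was compared with the genes of the gate. Ly6a was at 1 RPKM or more in 42.9% of expressing and 36.9% of low cells of mouse 1, and in 52.8% and 37.5% of mouse 2. Kit was detected at that level in 28.6% to 43.8% of cells over the 4 classes, and Slamf1 in 10.7% to 26.2%. These genes were therefore present in both classes, though each was seen in a minority of cells in most of them, as was Vwf, at 21.4% to 50%.

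Genes were compared as log2(mean RPKM + 1) over the cells of a class in a mouse, with limma and the mouse as a block, so that 4 values entered for each of 9760 genes. Mmrn1 was not among them. At a Benjamini-Hochberg adjusted p under 0.05, 0 genes (0%) were higher in Mmrn1-expressing cells and 1 gene (0.0102%) was lower. The lower gene was S100a8, and it rests on single cells, as described below. Among higher genes the lowest adjusted p was 0.944. At an unadjusted p under 0.05 there were 475 genes, 190 higher and 285 lower, where 488 of 9760 would be expected. With 2 mice an exact paired permutation test cannot go below p = 0.50, so the limma values lean on the spread over all genes.

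The 2 mice did not share a general difference between the classes. Of the 9760 genes, 2265 (23.2%) were higher in expressing cells of both mice and 2550 (26.1%) were lower in both, which together make 49.3%. Across genes, the difference in mouse 1 and the difference in mouse 2 had a Pearson r of 0.01. Over the 1199 genes seen in 50% or more of the cells of a class in both mice, r was 0.04. Plates of the same mouse were no more alike, with r of -0.01 between the plates of mouse 1 and -0.03 between those of mouse 2. Genes are not independent replicates, and these values describe the 4 plates only.

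**Figure D3:**
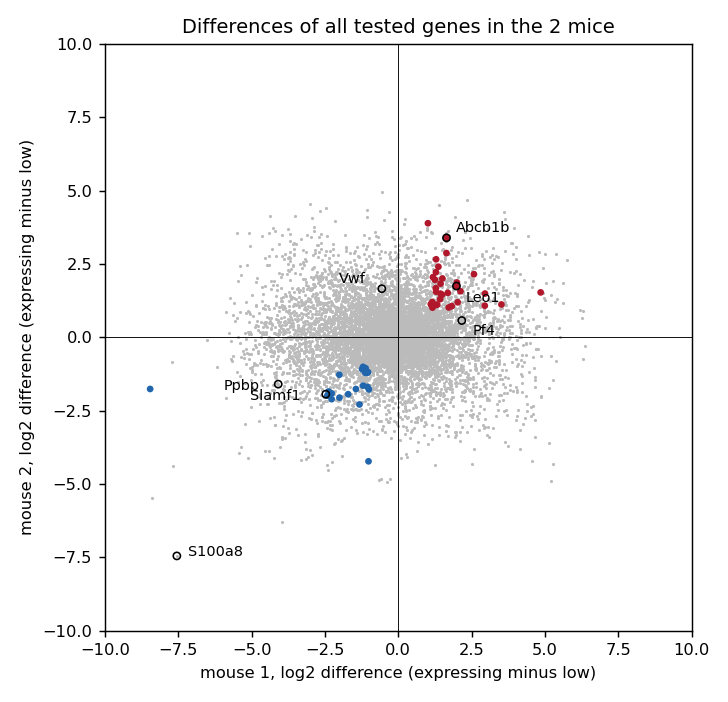
Differences between Mmrn1-expressing and Mmrn1-low cells for 9760 genes, as log2(mean RPKM + 1), in PLT mouse 1 (x axis) and PLT mouse 2 (y axis). Red and blue points are the 33 and 22 genes at least 2-fold higher or lower in both mice and seen in enough cells, and circles mark 7 named genes. The cloud has no slope, with r = 0.01, and S100a8 lies at the lower left. The 5 tested neutrophil markers, S100a8 among them, had medians of -7.67 in mouse 1 and -4.39 in mouse 2. Of 12 markers only these 5 were tested, and 1 low cell of each mouse could bring a marker into the test.

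A descriptive rule asked for a difference of at least 2-fold in the same direction in both mice, with the gene at 1 RPKM or more in at least 20% of cells of the higher class of each mouse. It was met by 33 genes higher (0.338%) and 22 lower (0.225%) in expressing cells. Of these, 3 and 4 were predicted genes. Without the condition on cells, 404 genes were 2-fold higher and 516 lower in both mice, while 939 were 2-fold in opposite directions. After adjustment for detected genes, mapped reads and plate, fitted on log2 values of single cells, 20 genes were higher and 12 lower by the rule. Of these, 2 and 0 were among the 33 and 22. The mean of log2 values over cells, without adjustment, kept 6 and 0 of them. The adjusted result thus holds both changes, and the part of each was not tested. With plates in place of mice, 4 and 5 genes met the rule. The genes described next therefore have the direction in common in these 2 mice and no call by the test.

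Among genes higher in expressing cells, Leo1 had both a large difference and a difference in how many cells held it at 1 RPKM or more. Leo1 (mm10 chromosome 9, 75441524 to 75466432, plus strand) is a subunit of the PAF1 complex, which travels with RNA polymerase II. Its mean was 141 RPKM in expressing and 35 in low cells of mouse 1, and 25.6 and 6.91 in mouse 2. It was at 1 RPKM or more in 10 of 28 against 6 of 65 cells of mouse 1 (35.7% with a 95% interval of 18.6 to 55.9%, and 9.23% with 3.46 to 19.0%). In mouse 2 it was so in 10 of 36 against 3 of 48 cells (27.8%, 14.2 to 45.2%, and 6.25%, 1.31 to 17.2%). Counted above 0, Leo1 was in 18 of 28 against 42 of 65 cells of mouse 1, so the shares were close there. In mouse 2 it was above 0 in 13 of 36 against 11 of 48 cells, and 1 cell made 66.6% of the low sum. The log2 difference was 1.98 in mouse 1 and 1.75 in mouse 2, and it was positive on all 4 plates, from 1.27 to 3.18. The limma estimate was 1.87 (SE 0.55, adjusted p = 0.944, 4 values).

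Abcb1b (chromosome 5, 8798147 to 8866315, plus strand), one of the genes of the multidrug efflux pump P-glycoprotein, had means of 56.6 against 17.4 RPKM in mouse 1 and 19.4 against 0.944 in mouse 2. It was at 1 RPKM or more in 10 of 28 against 13 of 65 cells, and in 16 of 36 against 4 of 48. Its log2 difference was 1.64 and 3.39, and it was positive on each plate. For Abcb1b 1 cell made 48.9% of the expressing sum in mouse 1, and 1 cell made 56.2% of the low sum in mouse 2. Its neighbour and near copy Abcb1a, which was named after its values were seen, gave 4.73 against 1.53 and 6.54 against 0.819 RPKM. Abcb1a was at 1 RPKM or more in 6 of 28 against 10 of 65 cells and in 10 of 36 against 4 of 48. Here 1 cell made 51.1% and 55.1% of the expressing sums, and 1 cell made 87.2% of the low sum in mouse 2. The 2 genes can share reads, so their values are not independent.

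Irgm2, an interferon-inducible GTPase, was present in most cells of both classes. Its means were 71.3 against 17.1 RPKM in mouse 1 and 33.0 against 8.30 in mouse 2, and its log2 differences 2.00 and 1.87. It was seen in 25 of 28 against 54 of 65 cells and in 30 of 36 against 27 of 48. The shares were thus close in mouse 1 and apart in mouse 2. As Irgm2 belongs to a family of similar genes, read sharing may affect its level.

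Ppp6r3, a regulatory subunit of protein phosphatase 6, had 28.8 against 0.0339 RPKM in mouse 1 and 11.4 against 3.28 in mouse 2. It was at 1 RPKM or more in 6 of 28 expressing cells and in 0 of 65 low cells of mouse 1, where the exact 95% interval reaches 5.52%. In mouse 2 it was so in 11 of 36 against 4 of 48 cells. Cdk5rap3, a regulator of the UFM1 protein tag, had 56.9 against 12.3 and 41.4 against 13.2 RPKM. Bag5, a co-chaperone of Hsp70, had 92.1 against 31.9 and 45.1 against 10.5, and both genes were higher on all 4 plates.

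Pak2, a kinase downstream of Rac and Cdc42, had 38.2 against 11.2 and 26.1 against 8.46 RPKM, and was higher on 3 of 4 plates. Fam65b, an inhibitor of RhoA, had 30.6 against 10.7 and 21.6 against 7.05 RPKM. It was at 1 RPKM or more in 28 of 28 against 63 of 65 cells of mouse 1 and in 23 of 36 against 28 of 48 of mouse 2, so the shares were close. For 2 other genes of the rule 1 cell made most of the expressing sum in mouse 1, with 87.4% of the Naip2 sum and 58.2% of the Plekhb2 sum. Naip2 is a sensor of bacterial proteins. Zmym5, a zinc finger gene, had 35.8 against 12.6 and 16.5 against 3.93 RPKM.

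Among the named genes that were lower in expressing cells by the 2-fold rule, Eed and Kcnn4 had the highest levels in low cells, apart from globin. Eed (chromosome 7, 89954654 to 89980983, minus strand) is a core subunit of Polycomb repressive complex 2. Its means were 46.0 RPKM in expressing and 103 in low cells of mouse 1, and 49.4 and 109 in mouse 2. The log2 differences of -1.15 and -1.13 were close, and Eed was lower on all 4 plates (SE 0.39 of the limma estimate, adjusted p = 0.944). Eed was at 1 RPKM or more in 10.7% against 21.5% and 33.3% against 39.6% of cells.

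Kcnn4 (chromosome 7, 24370263 to 24386690, plus strand), a calcium-activated potassium channel of blood cells, had 19.0 against 44.9 and 13.9 against 45.5 RPKM. It was at 1 RPKM or more in 3 of 28 against 16 of 65 cells of mouse 1 (10.7%, 2.27 to 28.2%, and 24.6%, 14.8 to 36.9%). In mouse 2 it was so in 7 of 36 against 21 of 48 cells (19.4%, 8.19 to 36%, and 43.8%, 29.5 to 58.8%). Kcnn4 was lower on all 4 plates, and was the named gene of the 2-fold rule with the largest drop in the share of cells in both mice.

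The other lower genes were at lower levels. Klhl7, an adaptor of a Cullin 3 ubiquitin ligase, had 6.83 against 36.8 and 2.17 against 12.6 RPKM, and Pabpn1, the nuclear poly(A)-binding protein, 2.60 against 16.4 and 2.04 against 10.4. In Zfp830, Supt7l, Slc35e1 and Slc17a5, 1 low cell made over 50% of the low sum in at least 1 mouse, from 54.2% to 84.2%. Beta-s, a beta-globin gene, had 4.05 against 1776 RPKM in mouse 1 and 1715 against 5807 in mouse 2, and is taken up with the erythroid markers. Here 1 cell made 83.4% of the low sum in mouse 1, and 1 cell made 97.4% of the expressing sum in mouse 2.

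A second view counted the cells that held a gene at 1 RPKM or more, which a single cell cannot sway, by a rule set after the values had been seen. In both mice 8 genes (0.082%) had a share at least 20 percentage points higher in expressing cells, and 0 genes (0%) had one as much lower. The 8 genes were Leo1, Ppp6r3, Mrpl32, Adi1, Rhbdd2, H2-T10, Prcp and 2310039L15Rik. Detected genes were also higher in expressing cells on every plate, and the part of this in the 8 to 0 split was not tested.

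Mrpl32, a protein of the large mitochondrial ribosomal subunit, was held by 12 of 28 against 13 of 65 cells of mouse 1 and by 27 of 36 against 26 of 48 of mouse 2. Adi1, an enzyme of methionine salvage, was held by 12 of 28 against 13 of 65 and by 17 of 36 against 13 of 48. Rhbdd2, a rhomboid-related membrane protein, was held by 11 of 28 against 10 of 65 and by 12 of 36 against 6 of 48. H2-T10, a class I gene annotated as a polymorphic pseudogene, with many close relatives that can share its reads, was held by 18 of 28 against 26 of 65 and by 21 of 36 against 18 of 48. Mean levels differed less than shares for several of them. Prcp, a lysosomal carboxypeptidase, even had a lower mean in expressing cells of mouse 2 (36.4 against 44.6 RPKM) while 23 of 36 against 21 of 48 cells held it. The 95% intervals of the 2 classes overlapped for most of these shares, as for Mrpl32 in mouse 1 with 24.5 to 62.8% against 11.1 to 31.8%.

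**Figure D4:**
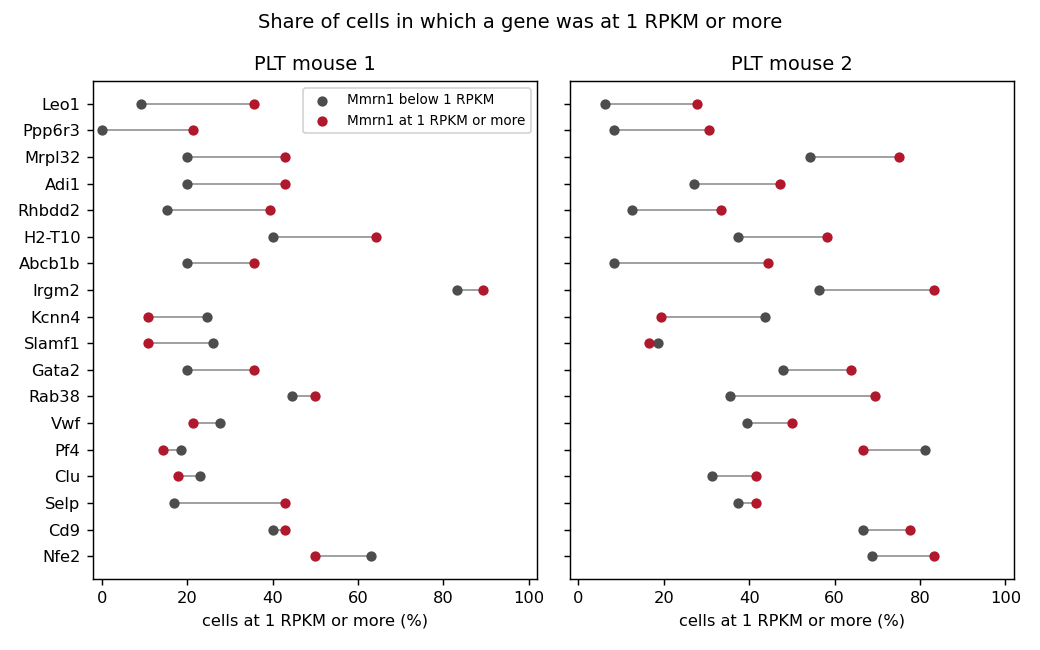
Percent of cells with a gene at 1 RPKM or more in Mmrn1-low (grey) and Mmrn1-expressing (red) cells, for 18 named genes in PLT mouse 1 (left) and PLT mouse 2 (right). The upper genes from Leo1 to H2-T10 have higher shares in expressing cells of both mice because they were chosen for it, while platelet genes such as Vwf and Clu change order between the mice.

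Other platelet and megakaryocyte genes varied in direction, also between the mice. The counts of listed genes are read against all 9760 genes, of which 23.2% were higher and 26.1% lower in both mice. Of 21 alpha-granule cargo genes 8 were tested, 2 higher and 1 lower in both mice, with a median log2 difference of -0.0034 in mouse 1 and 0.69 in mouse 2. Over all genes tested these medians were -0.06 and 0.01. Of 12 tested late megakaryocyte and platelet markers, 5 were higher (41.7%) and 1 lower (8.33%) in both mice (medians 0.00 and 0.38). Of 19 tested adhesion and activation receptors, 4 were higher and 3 lower, and of 22 tested genes of the granule membrane and its biogenesis 4 were higher and 3 lower. None of these genes passed the limma test.

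Vwf, the adhesive protein that names the transplanted cells, had 13.6 RPKM in expressing and 20.5 in low cells of mouse 1, and 25.5 and 7.38 in mouse 2. Its direction thus differed between the mice, with log2 differences of -0.56 and 1.66, and so did its shares of cells (6 of 28 against 18 of 65, and 18 of 36 against 19 of 48). Pf4, the chemokine platelet factor 4, had higher means in expressing cells, 292 against 64.5 RPKM and 779 against 523, and was higher on all 4 plates. However, it was held by fewer expressing than low cells in both mice, 14.3% against 18.5% and 66.7% against 81.2%, and 1 cell made 64.0% of its expressing sum in mouse 1. The Pf4 estimate by limma was 1.37 (SE 0.40, adjusted p = 0.944). It was -0.06 after adjustment for detected genes, mapped reads and plate, which also replaced the log2 of the mean by log2 values of single cells.

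Ppbp, another platelet chemokine, was listed at 0 in all expressing cells of mouse 1, where 1 low cell made 99.9% of the low sum. In mouse 2 it had 14.3 against 45.1 RPKM. Clu, the chaperone clusterin stored in alpha-granules, had 95.1 against 92.0 RPKM in mouse 1 and 131 against 75 in mouse 2. Selp, the adhesion receptor P-selectin, had 53.3 against 45.0 and 30.3 against 37.4. Selp was nevertheless held by 42.9% of expressing and 16.9% of low cells of mouse 1, and by 41.7% and 37.5% of mouse 2.

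Itga2b, the integrin chain of the platelet fibrinogen receptor, was low in all classes, with 2.93 against 0.0093 RPKM and 4.43 against 1.37. Itga2b was held by 2 of 28 against 0 of 65 cells and by 5 of 36 against 6 of 48, and 1 cell made 83.9% and 70.3% of its expressing sums. Its partner Itgb3 split between the mice (log2 0.33 and -0.53). Gp1ba and Gp9, subunits of the Vwf receptor, split as well, at -2.06 and 0.44 and at -1.84 and 0.24. Rab38, a small GTPase of lysosome-related organelles such as platelet dense granules, had 287 against 218 and 204 against 89.8 RPKM, and was held by 14 of 28 against 29 of 65 and by 25 of 36 against 17 of 48 cells. Trpc6, a cation channel found in platelets, had 37.7 against 24.6 and 41.0 against 8.4, though its direction differed between the plates of mouse 1. Most cells of either class held few late platelet markers. At least 3 of 14 were held by 10.7% of expressing and 4.62% of low cells of mouse 1, and by 22.2% and 20.8% of mouse 2. The median cell held 0 of 14 late markers at 1 RPKM or more in both classes of mouse 1 and 1 in both classes of mouse 2.

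Of 18 megakaryocyte and erythroid transcription factors, all tested, 5 were higher and 3 lower in both mice, with medians of 0.14 and 0.05. Gata2, a GATA factor of stem and progenitor cells, was among the higher, at 24.2 against 16.2 and 42.9 against 19.0 RPKM. Gata1, its megakaryocyte and erythroid relative, split at -2.52 and 0.36, as did Nfe2, a factor of platelet release, at -0.53 and 0.51.

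Slamf1 (chromosome 1, 171767127 to 171801184, plus strand), whose protein CD150 is part of the sort gate, had lower means in expressing cells of both mice. In mouse 1 its mean was 18.0 RPKM in expressing and 104 in low cells, and in mouse 2 it was 12.8 and 51.7. The log2 differences were -2.47 and -1.94, and Slamf1 was lower in expressing cells on all 4 plates (-1.88, -2.90, -0.55 and -5.20). The limma estimate was -2.20 (SE 0.55, adjusted p = 0.944, unadjusted p = 0.0073). It was held by 3 of 28 against 17 of 65 cells of mouse 1 (10.7%, 2.27 to 28.2%, and 26.2%, 16.0 to 38.5%). In mouse 2 the shares were close, with 6 of 36 against 9 of 48 cells. Slamf1 was lower in expressing cells under each of 16 other settings of the processing and 1 more chosen after seeing the data.

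Elsewhere in the series Slamf1 stood at 19.97 and 4.25 RPKM (MUL mouse 1 and 2), and at 65.8 and 41.0 (PEM mouse 1 and 2). The Mmrn1-low PLT cells at 104 and 51.7 lay above the MUL mice, and the expressing cells at 18.0 and 12.8 lay between those 2 mice. No test was made of these levels side by side.

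Other HSC genes varied in direction and size. Of 30 genes of HSC identity and self-renewal, 8 were higher and 7 lower in both mice (medians -0.07 and 0.20), and of 26 tested genes linked to HSC ageing 8 and 7. Procr, the endothelial protein C receptor, had 99.2 against 94.2 and 29.3 against 19.4 RPKM. Kit, the stem cell factor receptor, had 54.1 against 60.7 and 23.4 against 35.4, and Mecom, a transcription factor of HSC maintenance, 18.2 against 42.0 and 22.6 against 31.8. Both were thus lower in expressing cells of both mice, Mecom with log2 differences of -1.16 and -0.48 (limma adjusted p = 0.944). Fli1, an ETS factor, was in at least 89.6% of the cells of every class, with 224 against 270 and 154 against 166.

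Cell cycle genes showed no common direction for G2 and M phase. Of 51 tested G2/M genes 5 were higher and 12 lower in both mice, with medians of -1.26 in mouse 1 and 0.42 in mouse 2. Of 43 S phase genes 4 were higher (9.30%) and 17 lower (39.5%), with medians of -0.14 and -0.37, against 23.2% and 26.1% of all genes. Mki67, a marker of cycling cells, was at 1 RPKM or more in 0 of 28 expressing cells of mouse 1 against 10.8% of low cells, and in 25% against 22.9% of mouse 2. Cdkn1c, a cell cycle inhibitor of quiescent HSCs, had 10.9 against 21.1 and 5.15 against 5.22 RPKM.

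Of 27 tested interferon-response genes, 9 were higher (33.3%) and 3 lower (11.1%) in both mice (medians 0.17 and 0.15), against 23.2% and 26.1% of all genes. Gbp2, a guanylate-binding protein, had 239 against 124 and 64.8 against 34.7 RPKM and was higher on all 4 plates. Oasl2 had 76.1 against 21.4 and 59.7 against 22.4. Of 17 tested antigen-presentation genes 5 were higher (29.4%) and 0 lower, by little for the abundant ones, such as B2m at 6090 against 5652 and 10392 against 10134 RPKM. Ribosomal protein genes were 28 higher and 18 lower of 80 (medians 0.10 and 0.01), and oxidative phosphorylation genes 17 and 17 of 86.

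S100a8 (chromosome 3, 90668978 to 90670035, plus strand), a calcium-binding protein of neutrophils, was the gene past the test. Its mean was 12.9 RPKM in expressing and 2602 in low cells of mouse 1, and 0.168 and 203 in mouse 2, and the limma estimate was -7.50 (SE 0.44, adjusted p = 0.0336). In the low class 1 cell made 99.6% of the sum in mouse 1, at 168501 RPKM, and 1 cell made 94.3% in mouse 2, at 9187 RPKM. The next cells were at 459 and 474. S100a8 was held by 7 of 28 expressing and 9 of 65 low cells of mouse 1, and by 1 of 36 and 5 of 48 of mouse 2, so the shares differed in direction between the mice. Its median was 0 in every class. Most of the difference in means lay in 1 cell of each mouse.

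In the S100a8-rich cell of mouse 1 neutrophil markers made 38.5% of all RPKM, with 9 of 12 markers at 1 RPKM or more, and in that of mouse 2 they made 2.08%, with 6 of 12. Both cells had reads within the range of their class, 3.53 and 2.98 M. All 5 tested neutrophil markers, of 12, were lower in expressing cells of both mice. Testing required a mean of 1 RPKM in at least 2 of 4 values, which 1 low cell of each mouse could supply. For S100a9 the low means were 808 and 44.8 RPKM, with the highest cells at 52508 and 2148 and the next at 11.7 and 0.951. The count of 5 is therefore no support beyond these cells. The mean summed level of the 12 markers was 41.6 against 4327 RPKM in mouse 1 and 36.2 against 325 in mouse 2, while the medians over cells were close, at 24 against 27.1 and 21.4 against 29.7. Mmp8 and Retnlg were at 0 in all PLT cells. Without cells that held at least 3 markers of another cell type, the S100a8 difference was -1.68 (adjusted p = 0.940). Without the highest cell of each class it was -2.18 (adjusted p = 0.857), and its call was lost.

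Erythroid markers gave a like pattern. Of 5 tested markers of mature erythroid cells 4 were lower in expressing cells of both mice and 0 higher, with medians of -3.02 and -2.26. Rhd, a red cell blood group protein, had 0.137 against 45.9 and 0.0579 against 13 RPKM. Of its low sums, 1 cell made 99.7% in mouse 1 and 99.8% in mouse 2. Testing required a mean of 1 RPKM in at least 2 of 4 values, and Rhd met this only through the low class. That fixed its direction. The count and medians of these 5 markers, out of 10 with values, are therefore a description and no support for a difference. At least 3 erythroid markers were held by 0 of 28 against 2 of 65 cells of mouse 1 and by 1 of 36 against 6 of 48 of mouse 2. Without cells with markers of another type, Beta-s changed direction to 1.45. At least 3 macrophage and monocyte markers were held by 3 of 28 against 6 of 65 cells and by 9 of 36 against 10 of 48. B cell, T and NK cell, and mast cell and basophil markers were not held at 3 or more by any PLT cell.

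Near Mmrn1 lies A730020E08Rik, a long non-coding RNA 182915 bases away. This gene, which was named after its values were seen, had 4.09 against 0.971 RPKM in mouse 1 and 7.82 against 0.662 in mouse 2. Here 1 cell made 66.0% and 92.0% of the expressing sum, and the shares of cells were 53.6% against 38.5% and 25% against 16.7%. It was higher on 3 of 4 plates.

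Over single cells, no gene tracked Mmrn1 closely. Of 2621 genes at 1 RPKM or more in at least 20% of cells of both mice, Hsp90ab1, a cytosolic chaperone, had the largest positive Spearman correlation shared by the mice, at 0.23 over 93 cells and 0.28 over 84. Rps19bp1 followed at 0.23 and 0.32. Ninj1, a protein of membrane rupture, had the largest negative one, at -0.29 and -0.22. The cells of a mouse share their clone and plates, and these weak correlations are a description.

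Levels in the MUL and PEM mice were set beside both PLT classes for the genes earlier named between PLT and MUL mice and for a few others. Ctla2b, a cysteine protease inhibitor whose reads may be shared with Ctla2a, had 31.5 RPKM in expressing and 20.6 in low cells of PLT mouse 1, and 20.7 and 13.1 in PLT mouse 2. MUL cells had 362 and 455 by mouse, and PEM cells 78.0 and 85.7. Gna15, a G protein subunit, was listed at 0 in both classes of PLT mouse 1 and had 4.65 and 1.54 RPKM in PLT mouse 2, against 72.1 and 47.2 in MUL mice. These genes had been chosen from earlier results on the same mice, so the distance from MUL is no new support.

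Gkn3, gastrokine 3, had 55.2 against 128 and 107 against 152 RPKM in expressing and low cells, and 4.95 and 3.11 in MUL mice. Clu, given above for the PLT classes, had 9.64 and 8.14 in MUL mice. Mt1, a metallothionein, had 360 against 176 in PLT mouse 1 and 240 against 310 in PLT mouse 2, with 31.6 and 15.1 in MUL mice. Cd34, a surface marker, was nearly missing in PLT mouse 1 (0.0023 and 2.11) and had 17.9 and 10.1 in PLT mouse 2, with 95.6 and 121 in MUL mice. For these 6 genes each PLT class of each mouse lay beyond both MUL mice, whether or not its cells expressed Mmrn1. This was not particular to PLT mice. Both PEM mice lay beyond both MUL mice on the same side for Ctla2b, Clu (63.6 and 32.1), Mt1 (116 and 120) and Cd34 (36.9 and 28.5). For Gkn3 only PEM mouse 1 did (13.5, against 3.36 in PEM mouse 2), and for Gna15 neither did (56.3 and 49.4). For Vwf and Slamf1 not every PLT class lay beyond both MUL mice. Vwf had 2.39 and 8.53 RPKM in MUL mice, and the Mmrn1-low cells of PLT mouse 2, at 7.38, lay between them while the other PLT classes lay above both. For Slamf1 the expressing cells lay between the MUL mice and the low cells above them, as given earlier.

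**Figure D5:**
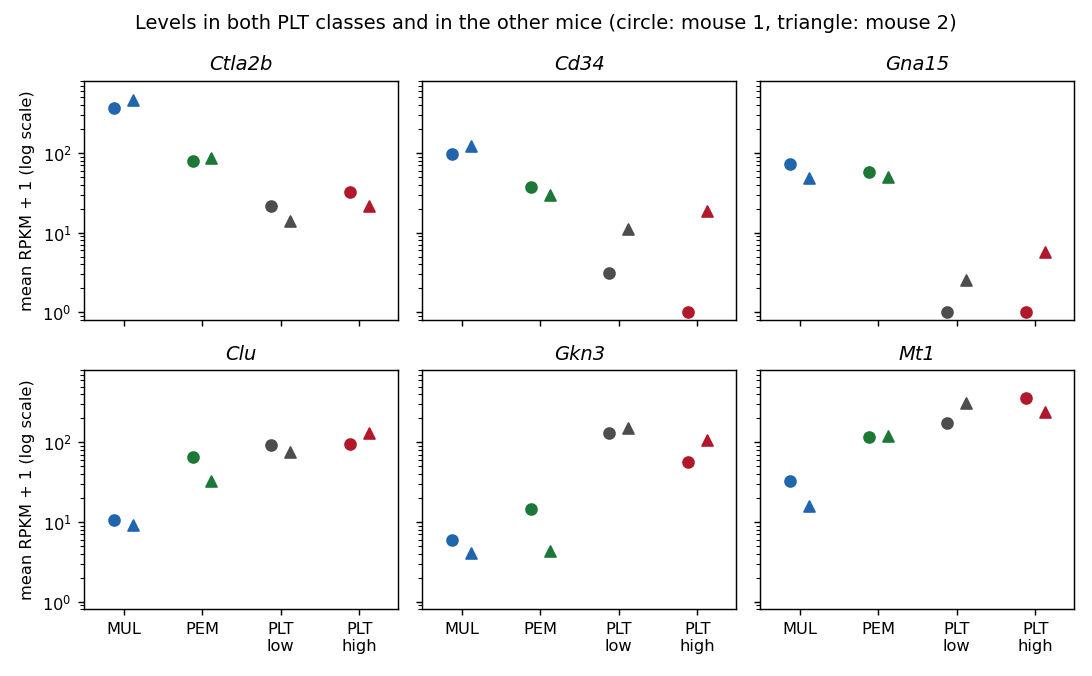
Mean RPKM + 1 on a log scale for 6 genes in MUL, PEM, Mmrn1-low PLT and Mmrn1-expressing PLT cells, with a circle for mouse 1 and a triangle for mouse 2 of each type. Both PLT classes lie below both MUL mice for Ctla2b, Cd34 and Gna15 and above them for Clu, Gkn3 and Mt1.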

How the data were processed

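Single sorted cells were made into libraries (SMARTer Ultra Low RNA kit), as the labels' protocols state. The authors deposited RPKM values for 22645 gene symbols, and a cell table with counts of mapped reads and detected genes and the percent of mitochondrial reads, per the file headers. TopHat, featureCounts and mm10 are named in the submitters' processing notes, and versions, gene lengths and read totals are not given in the sources used here. No count model was used, since the table gives no counts of reads per gene. The mean RPKM of each class was taken in each mouse, and a gene was tested where that mean reached 1 RPKM in at least 2 of 4 values. A rare gene that reached it only in 1 class of both mice had its direction fixed by this filter. Values were taken as log2(mean RPKM + 1), which understates changes of low genes. They were fitted with limma 3.58.1 (R 4.3.3, mouse as block, trended eBayes, Benjamini-Hochberg adjustment). Each gene has 1 residual degree of freedom and 5.82 in total after moderation. Both classes of a mouse come from the same animal, which pairs the values. Median mapped reads were 4.82 and 4.87 M in the 2 mice. No cells were left out, and doublets were not called, each well having received 1 sorted cell.

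Named were genes past the test, up to 12 per direction by the smaller of the 2 mouse differences among genes 2-fold in both mice, a fixed list of platelet, HSC and fate genes, up to 4 genes of each list with one direction in both mice, and up to 8 with the largest correlation with Mmrn1. Predicted genes were counted only. A few genes chosen by this rule are not reported here. The members, lists and rules were chosen with earlier results of these data known. Lists are described by counts without a test. A printed list gives tested members higher or lower in both mice. For the lists not described above, these were 6 and 3 of 14 platelet cytoskeleton and signalling genes, 5 and 8 of 22 genes earlier named between PLT and MUL, 0 and 1 of 3 lymphoid, 0 and 3 of 5 myeloid and 1 and 7 of 10 erythroid priming genes, 3 and 5 of 14 quiescence, 4 and 4 of 12 immediate early, 4 and 7 of 22 metallothionein and oxidative stress, 2 and 2 of 4 cysteine protease inhibitor and 8 and 2 of 20 glycolysis and hypoxia genes. They were 1 and 3 of 6 macrophage and monocyte, 0 and 0 of 1 B cell, 0 and 1 of 1 T and NK cell, 0 and 0 of 1 mast cell and basophil, and 1 and 0 of 5 endothelial and stromal markers. The effects of 16 other settings, and of 1 chosen after seeing the data, are in the closing section.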

Additional observations from a re-analysis of the deposited data

Results flagged for a closer look

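In 1 cell of PEM mouse 2, Mmrn1 was listed at 0.0261 RPKM, where all 163 MUL cells and every other PEM cell were listed at 0. These mice are outside the comparison of the 2 PLT classes, and the value lies below the mean of the Mmrn1-low cells of either PLT mouse. No explanation was tested.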

How the results depend on the processing

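Among genes called by limma, the count of higher genes was 0 under every alternative but 1. Comparing cells with Mmrn1 above 0 with cells listed at 0 gave 587 higher and 7 lower genes, with 128 and 65 genes 2-fold higher and lower in both mice. That lower class held only 15 and 8 cells, and the median over all genes then moved to 0.46 on the log2 scale. The count of lower genes was 1 in the comparison as reported, 2 with quantile normalization, and 0 with a pseudocount of 0.1 or 10, no filter on low values, the mean of log2 values, plates as blocks, a threshold of 10 RPKM for the higher class, cells between the quartiles of detected genes, adjustment for detected genes, mapped reads and plate, cells with markers of another type left out, or the highest cell of each class left out. Without the block for the mouse, the paired design being ignored, 0 genes were called in either direction.

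Genes 2-fold higher and lower in both mice, 33 and 22 as reported, were 8 and 3 with a pseudocount of 10 and 4 and 5 with plates as blocks. They were 56 and 59 in cells between the quartiles of detected genes, 20 and 12 after adjustment, 49 and 0 with the mean of log2 values, 58 and 33 without marker cells and 25 and 34 without the highest cells. After adjustment 2 of the 33 higher genes and 0 of the 22 lower were still among them, and with the mean of log2 values 6 and 0. The adjustment was itself fitted on log2 values of single cells, so it holds that change as well. Without 1 mouse, with the plates of the other as blocks, 0 genes were called either way, the 2-fold higher genes ranged from 100 to 117 and the lower from 80 to 103.

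Under Mmrn1 above 0 against listed at 0, these log2 differences changed sign: S100a8 to 6.53, Beta-s to 3.83, Zfp830 to 1.84, Supt7l to 1.48, Slc35e1 and Eed to 0.35 each, Kcnn4 to 0.0043, Pak2 to -0.10 and Zmym5 to -0.29. Beta-s was 1.45 without marker cells. Among the 123 other named genes, 155 of 2012 values had the other sign, spread over 75 genes, with 43 under Mmrn1 above 0 against listed at 0, 18 in cells between the quartiles of detected genes, 16 with the mean of log2 values and 15 after adjustment. Procr and Selp had the other sign under 6 of 17 settings each. The cause was not tested. The RPKM values carry no read counts per gene, so a limit set by depth could not be given for each gene.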
